A study of Rattus norvegicus with 22 samples.

Results

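The 10 genes described here belong to the stress response of the endoplasmic reticulum (ER) and to the ATF4 response that partly overlaps it. They were chosen by name as Hspa5, Hsp90b1, Pdia4, Herpud1, Xbp1, Atf4, Ddit3, Trib3, Chac1 and Asns, out of 17172 genes in the deposited RNA-seq count table. Earlier results of these data were known when they were chosen. All 10 were in the table, and all 10 passed the filter on low counts that left 12875 genes for testing. The libraries came from the ipsilateral hippocampus of adult male Sprague-Dawley rats, with 1 library per rat. TBI rats received a moderate lateral fluid percussion injury through a parasagittal craniectomy over the right hemisphere, made under isoflurane, with the pulse given once the toe pinch reflex was back. Sham rats had the same craniectomy, surgery and anesthesia without the fluid pulse, so all groups carry the surgery and no group is naive. Tissue was taken 1 day after the procedure from 2 Sham and 4 TBI rats, and 14 days after it from 4 Sham and 4 TBI rats.

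Proteins that fail to fold in the ER are sensed by 3 membrane proteins, PERK (Eif2ak3), IRE1 (Ern1) and ATF6. IRE1 splices the Xbp1 messenger RNA, ATF6 is cut to release a transcription factor, and both routes raise chaperones such as BiP (Hspa5). PERK phosphorylates the translation factor eIF2 alpha, as do 3 other kinases that respond to viral RNA, amino acid shortage or heme shortage. That phosphorylation lowers protein synthesis in general and raises translation of ATF4, which then induces genes of amino acid supply, its own feedback regulators and CHOP (Ddit3). Gene-level counts measure the amount of messenger RNA, so neither the translation of Atf4 nor the splicing of Xbp1 is read here. In bulk tissue, a change in the RNA of each cell and a change in the share of a cell type cannot be told apart.

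The promoters of 6 of the genes are shown first because each holds a match to a known binding motif of the response. The sequences are from RefSeq on the rat build GRCr8, whereas the counts were made on rn5. All 10 genes matched the promoter table by symbol. Each window runs from 250 bases before to 50 bases after the annotated start, 5′ to 3′ on the strand of the gene. The capitals mark the motif matches, searched on both strands.
Hspa5, chr3:38452766-38453065 (plus strand): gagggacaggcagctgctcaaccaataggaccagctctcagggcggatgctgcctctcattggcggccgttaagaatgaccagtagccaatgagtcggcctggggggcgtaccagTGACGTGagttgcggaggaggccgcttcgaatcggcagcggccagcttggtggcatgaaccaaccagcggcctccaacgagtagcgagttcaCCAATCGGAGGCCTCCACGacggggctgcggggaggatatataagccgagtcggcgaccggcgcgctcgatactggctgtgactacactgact
Hsp90b1, chr7:23012244-23012543 (minus strand): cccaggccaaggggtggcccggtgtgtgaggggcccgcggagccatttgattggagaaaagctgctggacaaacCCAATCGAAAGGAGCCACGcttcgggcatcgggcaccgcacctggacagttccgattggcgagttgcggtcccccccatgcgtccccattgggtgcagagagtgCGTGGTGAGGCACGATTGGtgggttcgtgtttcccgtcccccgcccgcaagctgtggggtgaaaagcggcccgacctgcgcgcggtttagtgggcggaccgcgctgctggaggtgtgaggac
Xbp1, chr14:84604373-84604672 (plus strand): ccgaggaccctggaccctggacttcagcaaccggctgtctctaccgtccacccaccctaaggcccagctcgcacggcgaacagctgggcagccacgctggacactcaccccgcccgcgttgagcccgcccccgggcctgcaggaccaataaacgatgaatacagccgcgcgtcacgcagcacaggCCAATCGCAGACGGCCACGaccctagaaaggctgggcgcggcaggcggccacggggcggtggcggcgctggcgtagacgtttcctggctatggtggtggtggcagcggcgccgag
Herpud1, chr19:10614658-10614957 (minus strand): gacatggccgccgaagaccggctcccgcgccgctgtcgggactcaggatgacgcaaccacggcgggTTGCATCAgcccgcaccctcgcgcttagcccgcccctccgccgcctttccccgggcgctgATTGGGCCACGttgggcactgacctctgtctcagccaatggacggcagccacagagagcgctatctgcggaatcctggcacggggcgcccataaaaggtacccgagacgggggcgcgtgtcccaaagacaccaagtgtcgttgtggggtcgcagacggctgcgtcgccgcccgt
Trib3, chr3:161275484-161275783 (minus strand): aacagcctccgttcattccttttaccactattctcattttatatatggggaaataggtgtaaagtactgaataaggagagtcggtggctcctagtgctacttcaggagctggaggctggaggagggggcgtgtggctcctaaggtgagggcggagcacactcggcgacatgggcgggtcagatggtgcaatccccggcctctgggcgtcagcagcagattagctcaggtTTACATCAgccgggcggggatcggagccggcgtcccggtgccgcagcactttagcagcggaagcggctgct
Chac1, chr3:126795881-126796180 (plus strand): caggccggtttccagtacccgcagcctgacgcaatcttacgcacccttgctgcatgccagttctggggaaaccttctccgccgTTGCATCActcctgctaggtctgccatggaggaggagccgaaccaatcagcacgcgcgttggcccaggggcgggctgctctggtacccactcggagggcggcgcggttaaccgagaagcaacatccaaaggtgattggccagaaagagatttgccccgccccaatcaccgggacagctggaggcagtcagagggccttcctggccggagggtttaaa

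The ER stress element, CCAAT and CCACG with 9 bases between them, is the site through which ATF6 and XBP1 act with NF-Y. It was present in 22 of 33469 rat promoters of the same length (0.0657%) and in 3 of the 10 genes. In Hspa5 it lay 43 to 25 bases before the start (-43 to -25) and in Xbp1 at -65 to -47. Hsp90b1 held a pair, at -176 to -158 and, on the opposite strand, at -72 to -54. The shorter form, ATTGG and CCACG with 1 base between them (0.0508% of promoters), was found in Herpud1 alone among the 10, at -124 to -114. The core TGACGTG (1.81% of promoters) was found at -135 to -129 of Hspa5. The composite C/EBP and ATF element bound by ATF4, TGATG and AA with 1 base between them, was in 3.98% of promoters and in 3 of the 10 genes, each time on the opposite strand. It lay at -21 to -14 in Trib3, -167 to -160 in Chac1 and -184 to -177 in Herpud1. No match to these letters was found in the windows of Atf4, Ddit3, Pdia4 and Asns. A match is a description of the letters and not a measured binding site. The motifs do not overlap one another in these windows.

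**Figure D1:**
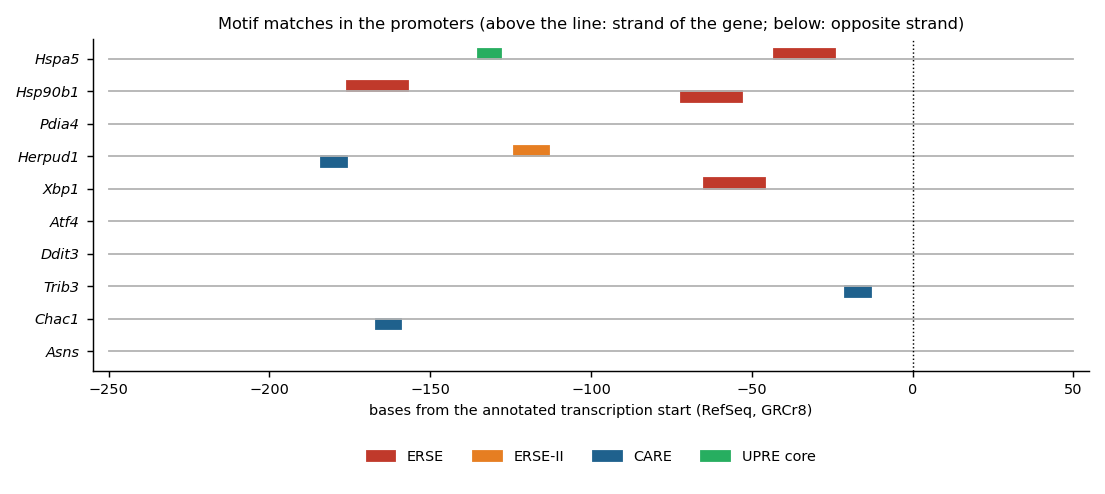
Motif matches in the promoters of the 10 genes, with bases from the annotated start on the horizontal axis and 1 gene per line; boxes above a line are on the strand of the gene and boxes below it on the opposite strand. Hspa5, Hsp90b1 and Xbp1 carry the ER stress element, Herpud1 its shorter form, and Trib3, Chac1 and Herpud1 the element bound by ATF4.

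Total counts ran from 19189470 to 23743703 among Sham day 1 libraries and from 17183319 to 23159858 among those of TBI day 1. They ran from 15506103 to 19175585 for Sham day 14 and from 15065540 to 19781459 for TBI day 14. Replicates differed by more than counting noise in all 19 within-group pairs (chi-square per degree of freedom of 12.9 to 167.9). Neuron markers, which check the labelled tissue, summed to 2137 to 8405 CPM (counts scaled to library size) and were detected in every library. The summed level of 12 choroid plexus markers was 10997 CPM in Sham day 1 replicate 1, against 209 in replicate 2. It was 2068 and 8696 CPM in TBI day 14 replicates 2 and 3 and 114 to 240 in the other 11 libraries. In Sham day 1 replicate 2, Enpp2 alone made up 201.5 CPM of the sum, and Otx2 had 0 counts in every library. The tests were also run without the 3 libraries with high sums, Sham day 1 replicate 1 and TBI day 14 replicates 2 and 3. That left replicate 2 as the only Sham day 1 rat. At day 1 after TBI, 4 of 6 neuron markers were lower and 4 of 5 leukocyte markers higher than in sham. Of the astrocyte markers 1 of 5 was higher, namely Gfap, at 6985 to 13056 CPM in TBI day 1 against 952.2 to 1558 in Sham day 1. The median log2 fold change of those 5 markers was -0.53. At day 14, 4 of 5 microglia markers were higher after TBI. Choroid plexus content was addressed only by the fits without the 3 libraries and by a covariate. The part of the other cell types in the results that follow was not tested.

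Of the 10 genes, Atf4 and Trib3 were higher in TBI day 1 than in Sham day 1, and the other 8 did not pass the test. Across the table, 19.1% of the 12875 genes tested passed it, with 11.2% higher and 7.93% lower. The test was edgeR's quasi-likelihood test, two-sided, with Benjamini-Hochberg adjustment over all tested genes and a threshold of 0.05. The median log2 fold change of the 10 genes was 0.08, against -0.02 over all tested genes. At day 14 none of the 10 passed, where 4.43% of all tested genes did. An unadjusted p under 0.05 was reached by 1 of the 10 (Trib3), beside 1713 of the 12875 tested genes. DESeq2 and limma-voom gave the same counts for the 10 genes as edgeR at both days, 2 at day 1 and 0 at day 14.

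**Figure D2:**
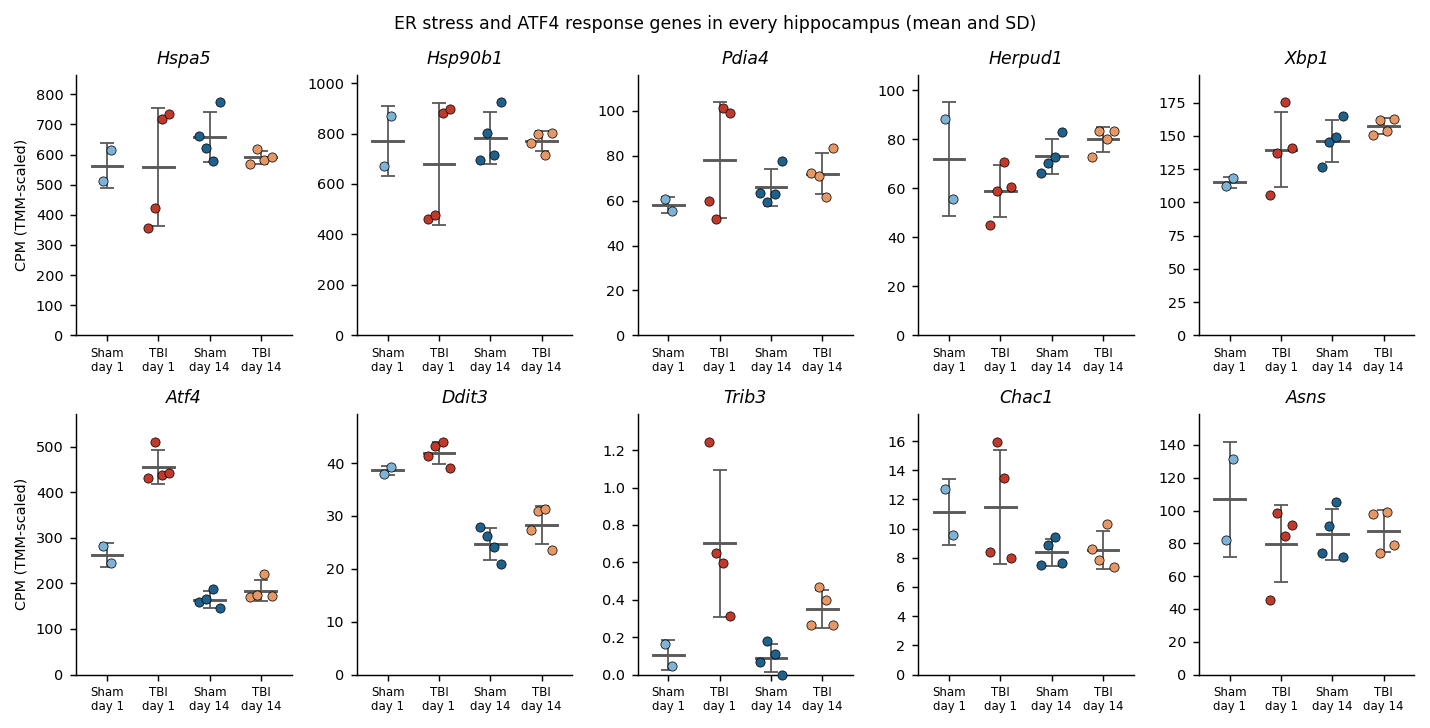
TMM-scaled CPM of the 10 genes in each of the 14 libraries, by group; points are rats in replicate order, lines are means and bars are SDs, and each vertical axis starts at 0. Atf4 in the 4 TBI day 1 rats sits above every other rat, and Hspa5, Hsp90b1 and Pdia4 fall into a low and a high pair of rats in TBI day 1.

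Atf4 encodes the transcription factor at the center of the response. Its level was 281.8 and 244.1 CPM in the 2 Sham day 1 rats and 430.7, 511.0, 437.8 and 443.2 CPM in the 4 TBI day 1 rats. In Sham day 14 it was 159.0, 165.9, 188.4 and 145.1 CPM, and in TBI day 14 it was 171.2, 174.6, 220.6 and 171.6 CPM. The TBI day 1 rats were above every other rat, while the day 14 groups overlapped. Of all tested genes, 16.7% had every TBI day 1 rat above Sham day 1, and 22.2% above Sham day 14. The difference between TBI and sham was 0.79 on the log2 scale at day 1 (SE 0.15, 1.73-fold, edgeR adjusted p = 0.00272) and 0.16 at day 14 (SE 0.12, edgeR adjusted p = 0.696). The call at day 1 was lost without Sham day 1 replicate 2 (log2 0.69) and in a fit of the day 1 samples alone (log2 0.82, edgeR adjusted p = 0.0536). Without the 3 libraries with choroid plexus markers the log2 difference was 0.89. Leaving out replicate 2 or those libraries left 1 Sham day 1 rat.

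The Atf4 levels ordered as Sham day 14, TBI day 14, Sham day 1 and TBI day 1, with means of 164.6 ± 18.1 (SD, n = 4), 184.5 ± 24.1 (n = 4), 262.9 ± 26.7 (n = 2) and 455.7 ± 37.2 CPM (n = 4). The first pair of neighbours in that order did not differ beyond their spread. Sham day 1 was above TBI day 14 (log2 difference 0.51, edgeR adjusted p = 0.0233). The change with TBI was larger at day 1 than at day 14 by 0.63 on the log2 scale (SE 0.19), which did not pass (edgeR adjusted p = 0.0854, with 3.68% of all tested genes passing). DESeq2 called that difference, for 1 of the 10 genes (log2 0.62, adjusted p = 0.0227).

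Trib3 encodes a pseudokinase that is induced by ATF4 and CHOP and restrains them, and its promoter match lies closest to the start of the 3 shown above. It was close to the detection limit, with 3 and 1 counts in the Sham day 1 rats and 24, 16, 13 and 7 in the TBI day 1 rats. In Sham day 14 it had 1, 3, 2 and 0 counts, and in TBI day 14 it had 4, 8, 8 and 5. TBI and sham rats did not overlap in CPM at either day. Among all tested genes, samples did not overlap with TBI higher in 16.7% at day 1 and 9.13% at day 14. The ratio of pooled counts per total was 6.85 at day 1 (95% interval 2.54 to 25.97) and 4.02 at day 14 (1.61 to 11.99). These intervals cover counting error only. The fitted log2 fold change at day 1 was 2.71 (SE 0.83, edgeR adjusted p = 0.0329), and at day 14 it was 1.92 (SE 0.72, edgeR adjusted p = 0.205). The day 1 call was lost without TBI day 1 replicate 1 (edgeR adjusted p = 0.0564) and in a fit of the day 1 samples alone (0.15). It was also lost in fits that left 1 Sham day 1 rat. The log2 fold change there was 2.06 without Sham day 1 replicate 2 and 3.73 without the 3 choroid plexus libraries.

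**Figure D3:**
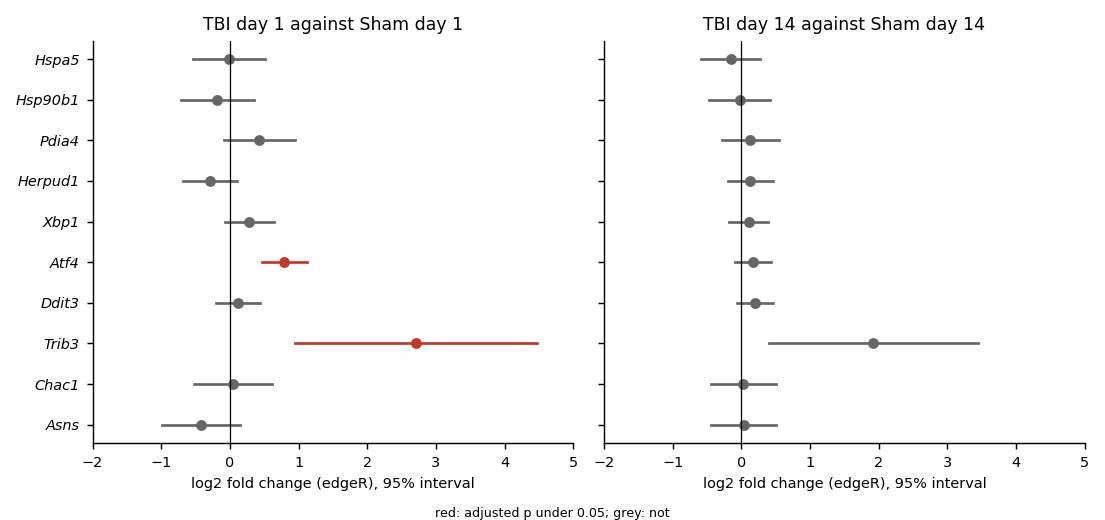
Log2 fold change of TBI against sham with its 95% interval from edgeR for the 10 genes, at day 1 (left) and day 14 (right); red marks an adjusted p under 0.05. Atf4 at 0.79 and Trib3 at 2.71 are the red points at day 1, and day 14 has none.

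Ddit3 encodes CHOP, the transcription factor tied to cell death under lasting ER stress. It was 38.0 and 39.2 CPM in Sham day 1 and 41.4, 43.2, 43.9 and 39.1 CPM in TBI day 1, so the groups overlapped. In Sham day 14 it was 28.0, 26.1, 24.1 and 20.8 CPM and in TBI day 14 it was 27.3, 30.9, 31.3 and 23.6 CPM. All 6 rats of day 1 were therefore above all 8 rats of day 14. The share of all tested genes that separate the days in this way was not counted. Between the sham groups alone, 41.5% of all tested genes did not overlap. With TBI it differed by 0.12 on the log2 scale at day 1 (95% interval -0.20 to 0.44, edgeR adjusted p = 0.611) and by 0.19 at day 14 (-0.07 to 0.45, edgeR adjusted p = 0.612). In the order of levels, only the step from TBI day 14 (28.3 ± 3.596 CPM) to Sham day 1 (38.6 ± 0.884 CPM) passed (log2 0.45, edgeR adjusted p = 0.0405).

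Levels of both Atf4 and Ddit3 in the Sham day 1 rats exceeded those of Sham day 14, by 0.68 (SE 0.15, edgeR adjusted p = 0.0079) and 0.64 (SE 0.15, edgeR adjusted p = 0.00969) on the log2 scale. They were 2 of 10 genes called in that comparison, both higher, where 19.1% of all tested genes were called and 11.3% were higher. The Atf4 call was lost without the 3 choroid plexus libraries (log2 0.58) and the Ddit3 call without Sham day 1 replicate 2 (log2 0.62). Either fit left 1 Sham day 1 rat. Xbp1 and Chac1 also did not overlap between the sham groups, which made 4 of the 10 genes beside 41.5% of all tested genes. Neither passed (log2 -0.35 and 0.41, edgeR adjusted p = 0.158 and 0.295). Set against Sham day 14, the TBI day 1 rats were higher in Atf4 (log2 1.47, SE 0.12, edgeR adjusted p = 6.07e-07), Ddit3 (0.76, SE 0.12, 0.000178) and Trib3 (2.90, SE 0.66, 0.0026). These 3 of 10 stood beside 46% of all tested genes called and 25% higher. That comparison shares its TBI rats with the day 1 comparison and its sham rats with the day 14 comparison. From day 1 to day 14 after TBI, Atf4 (log2 -1.30) and Ddit3 (-0.57) were lower and Herpud1 was higher, 3 of 10 where 39.5% of all tested genes were called, 17.6% higher and 21.9% lower.

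Chac1 and Asns are further genes that ATF4 is known to induce, and neither passed at either day. Chac1, which degrades glutathione, was 12.7 and 9.54 CPM in Sham day 1 and 8.40, 15.9, 13.5 and 8.01 CPM in TBI day 1. The TBI rats spanned the sham rats on both sides, and the log2 difference was 0.05 (95% interval -0.53 to 0.62, edgeR adjusted p = 0.925). Asns, asparagine synthetase, was 81.9 and 131.6 CPM in Sham day 1 and 45.3, 98.6, 84.6 and 91.0 CPM in TBI day 1. Its log2 difference was -0.42 (95% interval -0.99 to 0.15, edgeR adjusted p = 0.288). At day 14 Chac1 ranged from 7.54 to 9.41 CPM in sham and 7.34 to 10.3 in TBI, and Asns from 71.9 to 105.1 and 74.2 to 99.3 CPM. Both groups overlapped in both genes, and the log2 differences were 0.03 and 0.04. Without the 3 choroid plexus libraries that of Chac1 was -0.051. The means of Chac1 rose in the order Sham day 14 (8.38 CPM), TBI day 14 (8.54), Sham day 1 (11.1) and TBI day 1 (11.5), the order of Atf4, but no step passed. Chac1 in TBI day 1 stood 0.45 above Sham day 14 on the log2 scale (edgeR adjusted p = 0.107). It stood 0.43 above TBI day 14 (edgeR adjusted p = 0.138).

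Of the ER chaperones, Hspa5 encodes BiP, the main chaperone of the ER and the usual marker of its stress. It was 511.4 and 615.6 CPM in Sham day 1 and 355.8, 424.1, 717.8 and 735.5 CPM in TBI day 1. TBI replicates 1 and 2 were below both sham rats and replicates 3 and 4 above both. The means were 563.5 ± 73.7 CPM (SD, n = 2) and 558.3 ± 196.5 CPM (n = 4), a log2 difference of -0.01 (95% interval -0.54 to 0.51, edgeR adjusted p = 0.976). At day 14 the levels were 663.2, 622.6, 577.3 and 773.0 CPM in sham and 569.1, 619.3, 582.7 and 590.7 CPM in TBI, which overlapped (log2 -0.16, edgeR adjusted p = 0.864).

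Hsp90b1 (GRP94, the ER member of the HSP90 family) and Pdia4 (a disulfide isomerase) divided the same TBI day 1 rats. Hsp90b1 was 462.2 and 476.6 CPM in replicates 1 and 2 and 882.2 and 897.9 CPM in replicates 3 and 4, with sham rats at 672.6 and 868.9 CPM. Pdia4 was 60.01 and 51.8 CPM in replicates 1 and 2 and 101.2 and 99.1 CPM in replicates 3 and 4, with sham rats at 60.7 and 55.5 CPM. Their log2 differences from sham were -0.18 (edgeR adjusted p = 0.647) and 0.43 (95% interval -0.09 to 0.94, edgeR adjusted p = 0.227). The coefficient of variation within TBI day 1 was 35.2% for Hspa5, 35.8% for Hsp90b1 and 33.03% for Pdia4, against 3.59%, 5.27% and 12.4% within TBI day 14. Across the 10 genes the median coefficient in TBI day 1 was 31.4%, with 22.1% over all tested genes. In Sham day 14 it was 12.4% against 13.1%, and in TBI day 14 it was 12.6% for the 10 genes and for all tested genes. Atf4 (8.17%) and Ddit3 (5.09%) did not show the wide spread in TBI day 1.

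Neuron markers summed to 2137, 4471, 5164 and 4596 CPM in TBI day 1 replicates 1 to 4. Oligodendrocyte markers summed to 14709, 4573, 8067 and 3635 CPM and astrocyte markers to 14627, 8909, 15057 and 12568 CPM in the same order. Their part in the spread of the chaperones was not tested. No batch is given for these libraries, and the part of a batch in that spread was not tested either.

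Herpud1 encodes a membrane protein of ER-associated degradation, in which misfolded proteins are moved to the proteasome. It was 88.3 and 55.6 CPM in Sham day 1 and 45.2, 58.9, 70.8 and 60.5 CPM in TBI day 1. The higher sham value is that of the library with choroid plexus markers. The log2 difference of -0.29 (edgeR adjusted p = 0.294) became 0.07 without the 3 such libraries, which left 1 Sham day 1 rat. At day 14 the means were 73.1 ± 7.11 CPM in sham and 80.0 ± 5.03 CPM in TBI (n = 4 each, log2 0.13, edgeR adjusted p = 0.845). Between the TBI groups, Herpud1 was 0.44 higher at day 14 than at day 1 on the log2 scale (SE 0.15, edgeR adjusted p = 0.0337). That call was lost in 8 of 24 alternatives, among them the fit without the 3 choroid plexus libraries (0.44, edgeR adjusted p = 0.0749), and leaving out TBI day 1 replicates 1, 2 or 4 or TBI day 14 replicates 2 or 4 (edgeR adjusted p = 0.0759, 0.0638, 0.0524, 0.0746 and 0.0745).

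Xbp1, the transcription factor activated by IRE1 splicing, was 112.1 and 118.1 CPM in Sham day 1 and 105.7, 137.0, 175.1 and 140.7 CPM in TBI day 1. TBI replicate 1 was below both sham rats and the other TBI rats above them (log2 0.28, 95% interval -0.08 to 0.64, edgeR adjusted p = 0.257). At day 14 Xbp1 was 126.2 to 165.0 CPM in sham and 150.8 to 162.4 CPM in TBI, and the groups overlapped (log2 0.10, edgeR adjusted p = 0.867).

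Likeness of pattern was measured as the root mean square difference between log2 CPM profiles centred over the 14 libraries. The 5 genes nearest to Hspa5 were Hsp90b1 (0.11), Rpn1 (0.13), Pdia6 (0.14), Orc5 (0.14) and Cd200 (0.15), where the median of all tested genes was 0.47. Hsp90b1, Rpn1 and Pdia6 are ER proteins of folding or glycosylation. The 5 nearest to Atf4 were Drap1 (0.13), Prdx5 (0.14), Odc1 (0.15), Fbl (0.16) and Sf3b4 (0.17), with a median of 0.73. Of the other 9 genes Ddit3 came closest to Atf4, at 0.35 and place 455. The profiles share libraries and depth, and these distances carry no test.

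A wider list of 76 genes of the same pathways held 74 that were in the table and 72 that were tested. The list was chosen with earlier results of these data known, so its shares are a description and not a test of the pathways. At day 1, 18 (25%) were higher after TBI and 2 (2.78%) lower, beside 11.2% and 7.93% of all tested genes. Their median log2 fold change was 0.22. Of 14 ER chaperones and folding enzymes 2 rose, and of 9 stress sensors 1 did. Of 8 genes of ER-associated degradation 0 passed in edgeR, limma-voom or DESeq2. An unadjusted p under 0.05 in edgeR was reached by 0 of these 8, beside 4429 of the 12875 tested genes. Of 12 transcription factors and feedback genes 4 rose, of 8 amino acid synthesis genes 4, of 9 amino acid transporters 2 and of 12 cytosolic tRNA synthetases 5.

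**Figure D4:**
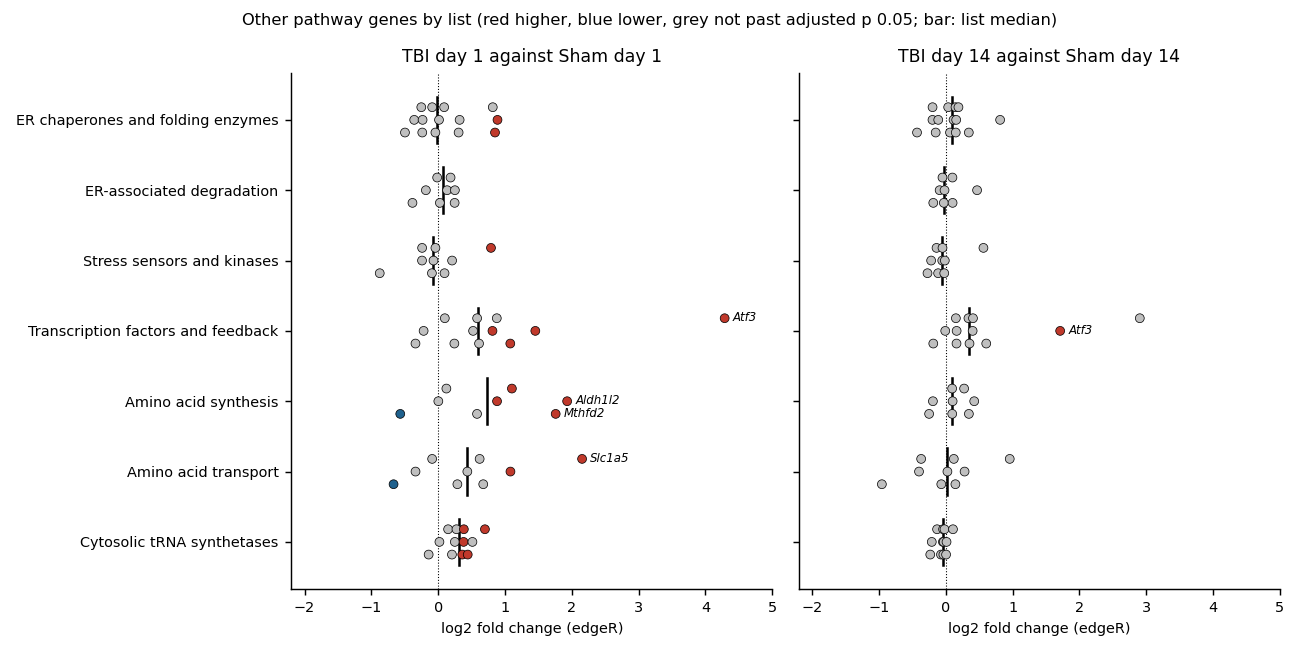
Log2 fold change of TBI against sham for 72 other genes of the pathways by list, at day 1 (left) and day 14 (right), with 1 point per gene and a bar at the median of each list. At day 1 the red points, higher at an adjusted p under 0.05, lie mostly in the 4 lower lists, led by Atf3 at 4.29, and at day 14 Atf3 is the red point.

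The transcription factor Atf3, a target of ATF4 and of other stress pathways, was 0.688 ± 0.135 CPM (n = 2) in Sham day 1 and 13.6 ± 6.07 CPM (n = 4) in TBI day 1. Its log2 fold change was 4.29 (SE 0.63, edgeR adjusted p = 0.000339). Ppp1r15a (GADD34), the phosphatase subunit that reverses eIF2 alpha phosphorylation, rose from 34.7 ± 4.16 to 73.1 ± 24.6 CPM (log2 1.08). The translation repressor Eif4ebp1 (log2 1.45, edgeR adjusted p = 0.00702) and the factor Atf5 (0.81, 0.0299) also rose. Gdf15, a secreted stress hormone, stood at a log2 difference of 0.61 (SE 0.93, edgeR adjusted p = 0.678). Ppp1r15a and Eif4ebp1 lost their calls without Sham day 1 replicate 2, and Atf5 lost its call without either Sham day 1 rat.

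The amino acid genes that rose at day 1 included 3 enzymes of mitochondrial one-carbon metabolism. Mthfd2 went from 3.87 ± 0.137 to 13.1 ± 2.77 CPM (log2 1.76, SE 0.24, edgeR adjusted p = 0.00017), with Aldh1l2 at 1.93 (SE 0.42) and Shmt2 at 0.88 (SE 0.17). Cth, which makes cysteine, was 1.10 higher (SE 0.21, edgeR adjusted p = 0.00248). Psat1, of serine synthesis, was lower (log2 -0.57, SE 0.18, edgeR adjusted p = 0.0382), and was called in 12 of 24 alternatives. Among transporters, the neutral amino acid carrier Slc1a5 (log2 2.15, SE 0.39) and Slc3a2, the heavy chain of the large neutral amino acid exchanger (1.08, SE 0.20), rose. The glycine transporter Slc6a9 fell by 0.67 on the log2 scale (SE 0.21, edgeR adjusted p = 0.0403) and was called in 13 of 24 alternatives. That call was lost without either Sham day 1 rat. Cth and Slc3a2 lost their calls without Sham day 1 replicate 2. Of the tRNA synthetases Eprs (log2 0.70), Mars (0.44), Cars (0.38) and Lars (0.38) rose, and Yars, named after its value was seen, at 0.36 (edgeR adjusted p = 0.0446). All 5 lost their calls without Sham day 1 replicate 1. Of 24 alternatives, Eprs was called in 20, Mars in 17, Lars in 14, Cars in 11 and Yars in 7.

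On the ER side, P4hb, a protein disulfide isomerase, rose from 196.1 ± 19.5 to 362.6 ± 49.7 CPM (log2 0.89, SE 0.17, edgeR adjusted p = 0.00246). Creld2, a small ER stress protein, was 0.85 higher (SE 0.24, edgeR adjusted p = 0.0251). It was called in 20 of 24 alternatives, and not with the day 1 samples alone or without Sham day 1 replicate 2. Sdf2l1, which works with BiP, had a log2 fold change of 0.82 at day 1 (edgeR adjusted p = 0.0889) and 0.81 at day 14 (edgeR adjusted p = 0.114). The oxidases Ero1l and Ero1lb had values of -0.50 and -0.36 at day 1 (edgeR adjusted p = 0.131 and 0.141). Of the degradation genes, Sel1l was at -0.39 (edgeR adjusted p = 0.19) and Edem2 at 0.25 (edgeR adjusted p = 0.386). Among the kinases of eIF2 alpha, Eif2ak2 (PKR), which responds to double-stranded RNA and is an interferon-induced gene, rose by 0.79 (SE 0.20, edgeR adjusted p = 0.0119). That gene was called in 21 of 24 alternatives, and not with the day 1 samples alone or without Sham day 1 replicate 2. Eif2ak1 and Eif2ak4 had log2 fold changes of -0.24 and 0.21 (edgeR adjusted p = 0.349 and 0.674). The sensors Eif2ak3, Ern1 and Atf6 were at 0.09, -0.07 and -0.24 (edgeR adjusted p = 0.655, 0.858 and 0.615). From the same list, Mbtps2 was at -0.88 (edgeR adjusted p = 0.119).

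Across 24 alternative fits and sample sets, P4hb, Mthfd2 and Slc1a5 were the 3 of the 20 called genes that passed in every one. The fit without the 3 choroid plexus libraries left 1 Sham day 1 rat. The calls of Atf5, Psat1, Slc6a9, Cars, Eprs, Lars, Mars and Yars were lost there. Without Sham day 1 replicate 2 the wider list had 10 calls in place of 20, and with the day 1 samples alone it had 6 (P4hb, Atf3, Mthfd2, Cth, Slc3a2 and Slc1a5).

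At day 14, 1 of the 72 genes (1.39%) was higher after TBI and none lower, beside 4.07% and 0.365% of all tested genes. This was Atf3, at 0.850 ± 0.581 CPM in sham and 2.76 ± 1.24 CPM in TBI (n = 4 each, log2 1.71, SE 0.46, edgeR adjusted p = 0.0486). The median of the list was 0.01. At an unadjusted p under 0.05 in edgeR, 8 of the 72 were higher and 4 lower, beside 1162 higher and 551 lower of the 12875 tested genes. Eif2ak2 at 0.56 (edgeR adjusted p = 0.056), Slc1a5 at 0.96 (0.105) and Gdf15 at 2.90 (0.12) did not pass. Nor did the lower genes Slc7a3 at -0.96 (edgeR adjusted p = 0.098) and Ero1lb at -0.43 (0.119). DESeq2 called 7 of the 72 at day 14 (5 higher and 2 lower), among them Atf3, Eif2ak2, Gdf15 and Slc1a5, and limma-voom called none, so that count depends on the tool.

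The change with TBI itself differed between the days for 3 of the 72 genes, where 3.68% of all tested genes passed and 2.24% were more upward at day 1. Mthfd2 (log2 difference 1.41, SE 0.29, edgeR adjusted p = 0.0164), Cth (1.35, SE 0.27, 0.0128) and Mars (0.65, SE 0.16, 0.0393) were these 3. For Mars, Sham day 1 was also below Sham day 14 (124.9 ± 2.36 against 183.1 ± 16.7 CPM, log2 -0.55, edgeR adjusted p = 0.0104). Between the sham groups 5 of the 72 genes (6.94%) were higher at day 1 and 6 (8.33%) lower, beside 11.3% and 7.88% of all tested genes.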

How the data were processed

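RNA-seq was performed on the ipsilateral hippocampus of 14 rats, grouped by the deposited labels. The authors aligned stranded single-end reads to rn5 and deposited raw counts per gene, and the submitters' processing notes name STAR 2.4.2a and featureCounts 1.5.0. The counting strand setting is not given in the sources used here, nor is a batch for any library. The authors describe a batch correction of their expression values over time, and no batch term was fitted here, so the part of a batch in these results was not tested. The H3K4me3 peak lists were not used here. The text's 10 genes and all gene lists were chosen with earlier results of these data known.

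Counts were tested in R 4.3.3 with edgeR 4.0.16, with TMM factors, filterByExpr by group, 1 mean per group over all 14 libraries and a two-sided quasi-likelihood test. P-values were adjusted by Benjamini-Hochberg over 12875 genes. CPM are TMM-scaled, and log2 CPM used a prior count of 2. Sham day 1 against TBI day 14 was added for neighbours in the order of levels. Genes named from the wider list had, per list, the 4 smallest p at day 1 or the 2 smallest at day 14. Eif2ak3, Ern1 and Yars were named outside that rule. On simulated day 1 data, edgeR recovered 48.5% of 101 genes changed by 1 on the log2 scale and 86.9% of 99 changed by 2. Only these genes were changed among 12724, whereas 19.1% of tested genes passed at day 1 in the real data. The recovered shares therefore do not give the power of the tests here. Alternatives were limma-voom 3.58.1, DESeq2 1.42.0, other factors and filters, a replicate block, a choroid plexus covariate, the compared groups alone, a threshold of 0.01 and each library left out. The fit without 3 libraries was chosen after seeing the data. Promoter motifs were searched by exact letters with Python 3.11.15.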

Additional observations from a re-analysis of the deposited data

Results flagged for a closer look

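In TBI day 1, Atf4 in replicate 2 was 511.0 CPM where the other 3 rats lay between 430.7 and 443.2 CPM, and the gap to the nearest rat was 0.844 of the group's range. In TBI day 14, Atf4 in replicate 3 was 220.6 CPM against 171.2 to 174.6 CPM in the others, a gap of 0.931 of the range. TBI day 14 replicate 3 is also a library with choroid plexus markers, whose part in this value was not tested. These were 2 of 30 groups of 4 rats compared with Dixon's 95% critical value, and chance flags about 1 group in 20.

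The effect of TBI on Mthfd2 was 1.41 larger at day 1 than at day 14 on the log2 scale, by a test of that difference in edgeR (adjusted p = 0.0164). The same test gave 1.35 for Cth (adjusted p = 0.0128) and 0.65 for Mars (adjusted p = 0.0393). These were 3 of the 72 genes of the wider list (4.17%), beside 3.68% of all tested genes, 2.24% being more upward at day 1. For Mars, Sham day 1 was also below Sham day 14 (log2 -0.55). The alternative fits were not applied to this difference for the wider list.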

How the results depend on the processing

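With 2 rats in Sham day 1, that group limits the day 1 results. It fell to 1 rat without the 3 choroid plexus libraries or without either of its own rats. Of the 10 genes, 2 were called at day 1. The count was 1 with at least 10 counts in every sample, 1 at an adjusted p under 0.01, 1 without the 3 choroid plexus libraries, 0 with only the compared groups and 0 to 2 with 1 library left out. At day 14 it was 0 throughout. Leaving out 1 library gave 3 to 4 in TBI day 1 against Sham day 14, 2 to 3 in TBI day 14 against TBI day 1, and 1 to 2 between the sham groups, with 1 there without the 3 libraries. For the difference between the days, DESeq2 gave 1. Of the wider list, the 20 calls at day 1 became 6 with only the compared groups, 10 at 0.01 and 10 to 22 with 1 library left out. The 1 call at day 14 became 0 with limma-voom, 7 with DESeq2, 10 with only the compared groups, 0 at 0.01, 3 without the 3 libraries and 0 to 3 with 1 left out. With only the compared groups, the wider-list calls fell at day 1 and rose at day 14. The median coefficient of variation over all tested genes was 19.7% in Sham day 1 and 22.1% in TBI day 1. It was 13.1% in Sham day 14 and 12.6% in TBI day 14. The main fit shares its spread estimate over all 14 libraries, and fewer samples lower the degrees of freedom. The part of either in these counts was not tested. Replicate numbers were not treated as pairs, and 5 of 18 correlations between same-numbered rats were over 0.1 (-0.348 to 0.243). Differently numbered rats were not correlated, so these values cannot show whether the numbers pair the rats. With the replicate block, 2 of the 10 genes were called at day 1 and 17 of the wider list, and between the sham groups Hsp90b1 moved to 0.14, Herpud1 to 0.078 and Trib3 to -0.15.

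The other sign changes were all in values that never passed a test. Hspa5 at day 1 was 0.018 with at least 10 counts and 0.010 with only the compared groups. At day 14 Hsp90b1 was 0.047 with the choroid plexus covariate, 0.0089 with only the compared groups and 0.020 without the 3 libraries, and Chac1 was -0.11 and -0.051 with the covariate and without those libraries. Under the same pair of settings the sham comparison gave 0.056 and 0.16 for Hsp90b1 and -0.31 and -0.83 for Trib3, and the difference between the days for Ddit3 was 0.058 and 0.021. Herpud1 at day 1 was 0.067 without those libraries. With 1 library left out, the day 1 values ran from -0.17 to 0.15 for Hspa5, -0.36 to 0.015 for Hsp90b1, -0.59 to 0.081 for Herpud1 and -0.16 to 0.26 for Chac1. At day 14 they ran from -0.079 to 0.062 for Hsp90b1, -0.065 to 0.094 for Chac1 and -0.039 to 0.15 for Asns. Between the sham groups they ran from -0.22 to 0.15 for Hsp90b1, -0.39 to 0.27 for Herpud1, -0.84 to 0.84 for Trib3 and -0.060 to 0.62 for Asns, and for Ddit3 the difference between the days ran from -0.15 to 0.0017.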
